A study of Mus musculus with 45 samples.

Results

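Solute carriers are membrane proteins that move sugars, amino acids, ions, metals, vitamins, nucleotides and organic acids across the plasma membrane and the membranes of organelles, and they are numbered by family. The genes described here are all rows of the authors' model table whose symbol begins with Slc and a digit, 179 probe sets of 173 symbols in 42 families, out of 9626 probe sets in that table and 28944 with a measured value. The symbols include Slc9a3r1 and Slc9a3r2, which encode scaffold proteins that bind transporters and are not carriers themselves. All 179 had a value and entered the tests, 137 were detected above background on every one of the 45 arrays, 42 on some arrays, and 0 on none.

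The arrays measured the ectoderm (the surface epithelium) and the mesenchyme (the connective tissue core) of the mouse facial prominences, the buds that fuse to form the face. Embryos were inbred wild-type C57BL6/J aged E10.5, E11.5 or E12.5 (embryonic days), and each sample pooled several embryos whose layers had been peeled apart after Dispase II treatment. Frontonasal, maxillary and mandibular prominences were sampled in both layers at E11.5 and E12.5, and at E10.5 the groups were frontonasal mesenchyme, mandibular mesenchyme and mandibular ectoderm. Each of the 15 groups held 3 arrays, labelled as biological replicates.

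Glucose enters cells through carriers of the Slc2 family, while amino acids enter through exchangers that trade 1 amino acid for another and through sodium-driven importers. Several exchangers of the Slc7 family work only when joined to the heavy chain encoded by Slc3a2. Ion carriers of the Slc4, Slc9, Slc12 and Slc26 families set cell volume and pH, and Slc30 and Slc39 carriers move zinc out of and into the cytosol. Defects in human SLC26A2 (sulfate) and SLC35D1 (nucleotide sugars) cause skeletal dysplasias, since both supply the building of cartilage matrix. Values below are log2 signals after normalization, each difference is a mean over the age and prominence combinations that enter it, with the standard error (SE) of the fit, and a gene was called where the adjusted p of that fit was under 0.05. A level of 1 probe set is not set against that of another, because probes differ in brightness.

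The separation of the layers set the frame for all values. Each array detected between 22008 and 26532 probe sets. All 11 epithelial marker genes tested were higher in ectoderm and all 6 mesenchymal markers lower, but no marker list was empty on the other side: the mean level of the epithelial list ran from 10.15 to 10.70 on ectoderm arrays and from 5.61 to 8.75 on mesenchyme arrays. The upper end of the latter came from frontonasal mesenchyme, where Epcam, an epithelial adhesion protein, measured 8.36 to 8.81, against 4.67 to 6.76 in the other mesenchyme. Markers of red blood cells (12 of 12 tested) and of endothelium (9 of 9) were lower in ectoderm. There were 3 arrays that stood apart from their group: frontonasal ectoderm E11.5 replicate 2, frontonasal ectoderm E12.5 replicate 3 and maxillary mesenchyme E12.5 replicate 1. In tissue of mixed cells, fewer cells of a type and less RNA per cell cannot be told apart.

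The first comparison asked which transporters differed between ectoderm and mesenchyme, over 21 arrays a layer from the 7 combinations of age and prominence with both layers. Of the 179, 92 were higher in ectoderm, where 35.9% of all tested probe sets were higher, and 59 were lower, where 33.7% of all were lower. Among the probe sets of the authors' table alone, which had been filtered on variance over these arrays, 38.9% were higher and 40.3% lower. The median difference of the transporters was 0.14, against 0.028 over all tested, and the median size of a difference was 0.31 against 0.23. For 20 transporters the 21 ectoderm arrays did not overlap the 21 mesenchyme arrays, 14 of them higher in ectoderm, against 4.71% of all tested and 6.84% of the authors' table, and 6 lower, against 3.98% and 5.89%.

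**Figure D1:**
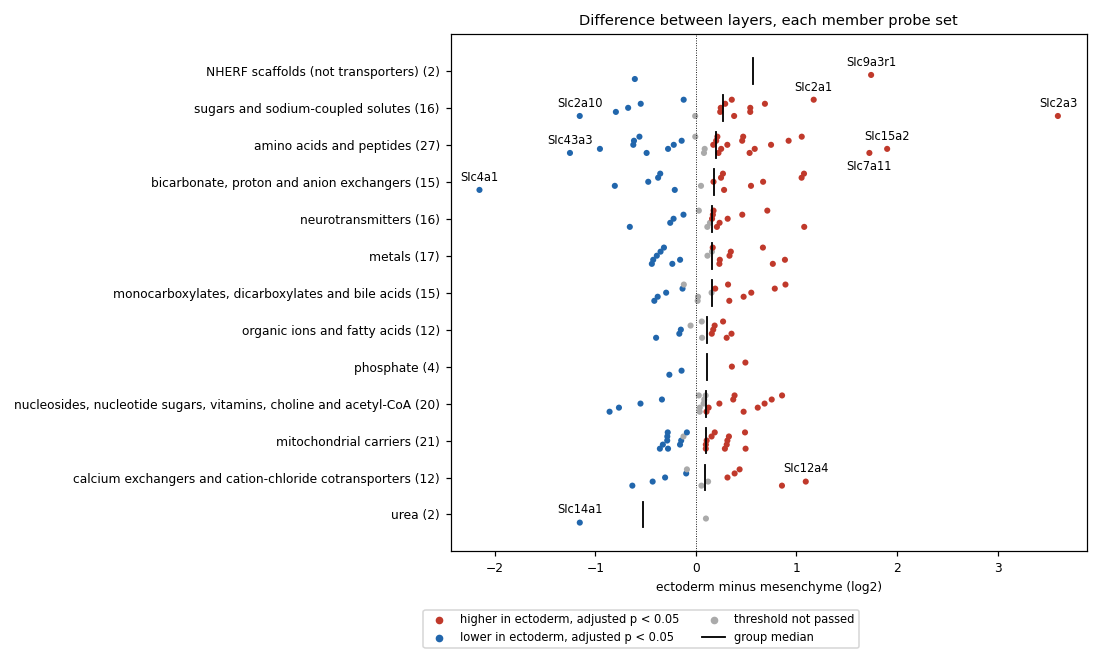
Difference between ectoderm and mesenchyme (log2, horizontal axis) for each of the 179 probe sets, 1 point each, in rows by the substrate of the transporter family with the number of probe sets in brackets. Colour gives the call at an adjusted p under 0.05 and the black bar the median of the row; Slc2a3 stands at 3.60 on the right and Slc4a1 at -2.15 on the left.

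Glucose carriers held the largest layer difference of all 179. Slc2a3, a high-affinity glucose transporter best known from neurons and the early embryo, measured from 11.37 to 11.86 (median 11.61) in ectoderm and from 7.59 to 8.87 (median 7.90) in mesenchyme. No array of one layer reached the other, and the highest of these 21 mesenchyme arrays was maxillary E11.5 replicate 2. That array had the highest Epcam of the maxillary mesenchyme (6.76). Frontonasal mesenchyme at E11.5 had higher Epcam (8.53, 8.61 and 8.59) and lower Slc2a3 than that array. The part of epithelial cells in the Slc2a3 values was not tested. The layer difference of Slc2a3 was 3.60 (SE 0.06), or 12.1-fold, with an adjusted p of 7.8e-33, and it lay between 3.01 and 3.92 in the 7 combinations. Slc2a1, the widespread basal glucose transporter, measured from 10.90 to 11.40 (median 11.14) in ectoderm and from 9.70 to 10.38 (median 9.91) in mesenchyme, again without overlap, a difference of 1.17 (SE 0.03, adjusted p = 4.7e-28).

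Other sugar carriers ran the opposite way. Slc2a10, a transporter whose human counterpart is mutated in arterial tortuosity syndrome, measured from 4.84 to 6.12 (median 5.32) in ectoderm and from 5.93 to 7.23 (median 6.44) in mesenchyme, lower in ectoderm by 2.23-fold (difference -1.16, SE 0.07, adjusted p = 3.9e-18). Slc50a1, a sugar carrier of the SWEET family, was lower by 1.74-fold (-0.80, SE 0.04) and Slc2a4, the insulin-responsive glucose transporter, by 1.60-fold (-0.67, SE 0.04), both without overlap between the layers. In the whole group of 16 sugar and sodium-coupled carriers, 10 were higher in ectoderm, 5 lower and 1 was not called, with a median of 0.27. The shares in the authors' table were 38.9% higher and 40.3% lower.

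The promoter of Slc2a1 is printed as that of 1 of the glucose carriers without overlap between the layers. It lies at chr4:119108495-119108794 on the plus strand of GRCm38.p6, from 250 bases before to 50 after the start of the gene. Capitals mark ACGTG, the core of the element bound by hypoxia-inducible factors, searched on both strands.
Slc2a1: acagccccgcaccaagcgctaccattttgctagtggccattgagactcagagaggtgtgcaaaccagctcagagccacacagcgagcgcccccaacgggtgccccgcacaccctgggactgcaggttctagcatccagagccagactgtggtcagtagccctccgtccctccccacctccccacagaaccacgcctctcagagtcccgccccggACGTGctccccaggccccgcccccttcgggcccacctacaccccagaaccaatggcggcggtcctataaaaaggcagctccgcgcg
It holds 1 match, 36 bases before the start, and 19.6% of the 32851 promoters in the table hold at least 1 match.

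Amino acid and peptide carriers formed the largest group, 27 probe sets, of which 15 were higher in ectoderm, 9 lower and 3 not called (median 0.20). The shares in the authors' table were 38.9% higher and 40.3% lower. Slc15a2, which imports small peptides together with protons, measured from 6.07 to 7.81 (median 7.08) in ectoderm and from 4.44 to 6.27 (median 5.07) in mesenchyme. The layers overlapped through frontonasal mesenchyme arrays at E12.5, and the difference was 1.90 (SE 0.08, adjusted p = 2.2e-22). Slc7a11, the light chain of the exchanger that imports cystine for glutathione synthesis, differed by 1.73 (SE 0.06, adjusted p = 2.1e-24), and its difference ranged from 0.15 in the mandibular prominence at E10.5 to 3.34 in the frontonasal prominence at E12.5. Slc7a10, an exchanger of small neutral amino acids, was higher in ectoderm by 1.05 (SE 0.05). The heavy chain Slc3a2 was higher by 0.31 (SE 0.03, adjusted p = 1.2e-13). Slc7a5, the light chain for large neutral amino acids such as leucine, was higher by 0.75 (SE 0.045), with a difference of -0.16 in the mandibular prominence at E10.5 and 1.40 there at E12.5.

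Slc43a3 and Slc43a1 were higher in mesenchyme. Groups were set by family number, so Slc43a3, a purine nucleobase transporter, is counted with the amino acid carriers. It measured from 7.56 to 8.36 (median 7.85) in ectoderm and from 8.89 to 9.50 (median 9.19) in mesenchyme. The difference was -1.25 (SE 0.04, adjusted p = 1.2e-24) without overlap. Slc43a1, a carrier of branched-chain amino acids, measured from 6.88 to 8.01 in ectoderm and from 7.82 to 8.89 in mesenchyme, a difference of -0.95 (SE 0.04, adjusted p = 1.9e-23). Slc1a5, the glutamine importer, was not called (0.09, SE 0.05, adjusted p = 0.090), but it was called higher under 7 of the alternatives, with an adjusted p of 0.0243 after quantile normalization, 0.00911 without the frontonasal groups and 0.00575 without frontonasal ectoderm E12.5 replicate 3. Among neurotransmitter-type carriers, Slc6a14, an importer of neutral and cationic amino acids, was higher in ectoderm by 1.08 (SE 0.06), from 3.72 to 6.31 against 3.25 to 4.18, and it was detected on all 21 ectoderm and 13 of 21 mesenchyme arrays. The vesicular carrier Slc6a17 was lower in ectoderm (-0.66, SE 0.05).

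Ion carriers went in both directions. Of the 15 exchangers of bicarbonate, protons and anions, 8 were higher in ectoderm, 6 lower and 1 not called, beside 38.9% higher and 40.3% lower in the authors' table. Slc4a4, a sodium bicarbonate cotransporter, measured from 6.52 to 7.64 (median 7.09) in ectoderm and from 5.73 to 6.25 (median 6.05) in mesenchyme, a difference of 1.07 (SE 0.05) without overlap. The sulfate carrier Slc26a2 also did not overlap, at 7.42 to 8.35 in ectoderm and 6.76 to 7.40 in mesenchyme (1.05, SE 0.04, adjusted p = 5.9e-23). Slc12a4, a potassium chloride cotransporter used in volume control, differed by 1.09 (SE 0.04) with no overlap, from 8.97 to 9.50 against 7.69 to 8.63. Slc12a2, which imports sodium, potassium and chloride, differed by 0.86 (SE 0.03) on average, although in the frontonasal prominence at E12.5 its difference was -0.11. The proton exchanger Slc9a5 was lower in ectoderm by 0.81 (SE 0.06), and both probe sets of the sodium calcium exchanger Slc8a1 were lower, by 0.43 and 0.63.

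The scaffold genes went opposite ways. Slc9a3r1, which anchors transporters at the apical face of epithelia, measured from 8.60 to 9.72 (median 9.18) in ectoderm and from 6.61 to 8.54 (median 7.20) in mesenchyme. Its difference was 1.74 (SE 0.05, adjusted p = 5.2e-28), and it ranged from 0.47 in the frontonasal prominence at E12.5 to 2.85 in the mandibular prominence at E10.5. Slc9a3r2 was lower in ectoderm by 0.61 (SE 0.04), and neither gene overlapped between the layers.

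Of 17 metal carriers, 8 were higher, 7 lower and 2 not called, beside 38.9% higher and 40.3% lower in the authors' table. The zinc importers Slc39a2 (0.89, SE 0.05) and Slc39a10 (0.76, SE 0.03) and the zinc exporter Slc30a1 (0.67, SE 0.03) were higher in ectoderm, and the magnesium carrier Slc41a2 was lower (-0.44, SE 0.06). Of 15 carriers of mono- and dicarboxylates and bile acids, 7 were higher and 4 lower. The lactate and pyruvate carriers Slc16a1 (0.78, SE 0.04) and Slc16a3 (0.47, SE 0.04) were among the former, together with Slc16a13 (0.89, SE 0.03). Mitochondrial carriers had small differences, with 11 of 21 higher and 9 lower, all between -0.36 and 0.49. Slc25a13, an aspartate glutamate exchanger, was at the upper end.

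Among 20 carriers of nucleosides, nucleotide sugars, vitamins and choline, 10 were higher, 4 lower and 6 not called, beside 38.9% higher and 40.3% lower in the authors' table. Slc35b3, which brings the sulfate donor into the Golgi, was higher in ectoderm by 0.86 (SE 0.06). The CMP-sialic acid carrier Slc35a1 (-0.77, SE 0.05) and the nucleoside carrier Slc29a1 (-0.86, SE 0.04) were lower, and none of these 3 overlapped between layers. The 12 organic ion and fatty acid carriers differed by 0.40 at most, and the 4 phosphate carriers by 0.49 at most.

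The lowest value in ectoderm relative to mesenchyme belonged to Slc4a1, the chloride bicarbonate exchanger known as band 3 of the red cell membrane. It measured from 5.33 to 7.56 (median 6.04) in ectoderm and from 7.17 to 9.21 (median 8.20) in mesenchyme, a difference of -2.15 (SE 0.10, adjusted p = 1.1e-20). The urea carrier Slc14a1, which red cells also carry, differed by -1.16 (SE 0.06, adjusted p = 2.4e-19), and the mitochondrial iron importer Slc25a37, prominent in erythroid cells, by -0.28 (SE 0.04). The red cell list, which holds none of the Slc genes described here, had 12 of 12 tested genes lower in ectoderm. Its mean level was 5.80 to 7.61 on ectoderm arrays and 7.42 to 8.67 on mesenchyme arrays. Embryonic globin Hbb-y was far from absent in ectoderm, from 8.43 to 12.61. The part of red cells in these differences was not tested.

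**Figure D2:**
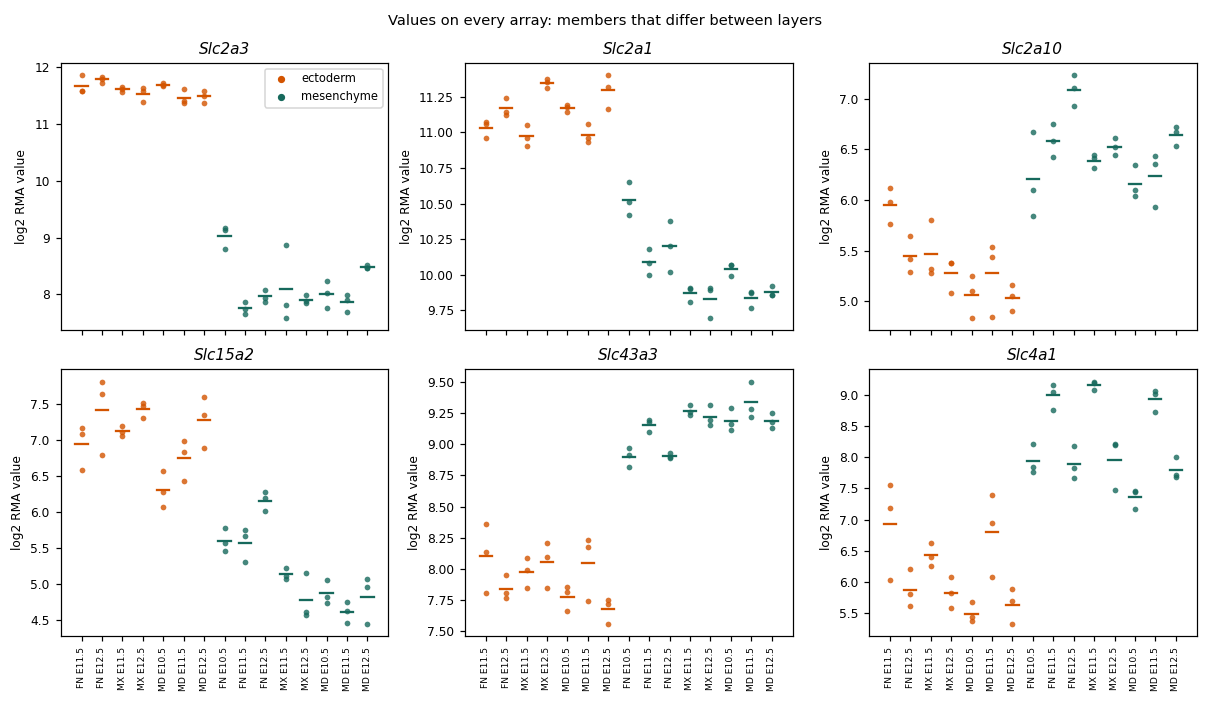
Log2 signal of 6 transporters on each of the 45 arrays, by group along the horizontal axis (FN frontonasal, MX maxillary, MD mandibular, with the embryonic day), points for arrays and bars for group means, orange for ectoderm and green for mesenchyme. Slc2a3 and Slc2a1 are higher on every ectoderm array, Slc43a3 on every mesenchyme array, and Slc4a1 is highest in mesenchyme at E11.5.

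The second question was how the prominences differ within the ectoderm, over E11.5 and E12.5 with 6 arrays a prominence. Between frontonasal and mandibular ectoderm 37 transporters were higher (11.3% of all tested and 13.4% of the authors' table) and 14 lower (11.8% of all, 13.8% of the table). This count of 51 depended on single arrays. Without frontonasal ectoderm E12.5 replicate 3 it was 28, without frontonasal ectoderm E11.5 replicate 2 it was 32, without frontonasal ectoderm E12.5 replicate 2 it was 77, and in a fit to only these groups it was 18. The largest difference was that of Slc7a11. Of 27 amino acid and peptide carriers 12 were higher and 0 lower in this fit, and of 12 calcium and chloride-coupled carriers 0 were higher and 4 lower.

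Slc7a11 was graded across the ectoderm. At E11.5 its replicates measured 8.70, 8.39 and 9.02 in frontonasal, 8.26, 8.21 and 8.36 in maxillary and 7.49, 7.40 and 7.24 in mandibular ectoderm. At E12.5 they measured 9.77, 10.06 and 9.46 in frontonasal, 8.12, 8.35 and 8.52 in maxillary and 6.41, 6.49 and 6.34 in mandibular ectoderm. Frontonasal replicates were thus above all others at each age and mandibular replicates below, with no overlap within an age. Frontonasal minus mandibular was 2.34 (SE 0.11, 5.06-fold, adjusted p = 1.0e-17), maxillary minus mandibular 1.41 (SE 0.11, adjusted p = 2.3e-11) and frontonasal minus maxillary 0.93 (SE 0.11, adjusted p = 2.9e-07). In mesenchyme, all of its values lay between 4.99 and 6.84. Its partner Slc3a2 differed between frontonasal and mandibular ectoderm by 0.16 (SE 0.05, adjusted p = 0.014).

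The promoter of Slc7a11 is shown because this gene had the widest differences between prominences. It lies at chr3:50443564-50443863 on the minus strand of GRCm38.p6. Capitals mark TGATGNAA, the core of the amino acid response element through which the stress factor ATF4 acts, searched on both strands.
Slc7a11: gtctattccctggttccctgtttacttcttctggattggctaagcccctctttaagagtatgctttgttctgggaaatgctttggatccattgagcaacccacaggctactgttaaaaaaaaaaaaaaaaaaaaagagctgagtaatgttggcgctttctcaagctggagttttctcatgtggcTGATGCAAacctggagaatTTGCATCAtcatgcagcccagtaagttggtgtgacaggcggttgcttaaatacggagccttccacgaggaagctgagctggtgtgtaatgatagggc
It holds 2 matches, 1 on each strand, which begin 66 and 47 bases before the start. At least 1 such match is held by 4.0% of the 32851 promoters, and 23 promoters hold 2 or more. A match describes the letters only and shows no binding.

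Slc12a2 and Slc4a4 were lower in frontonasal than in mandibular ectoderm. Slc12a2 measured 10.06, 9.77 and 10.07 in frontonasal ectoderm at E11.5 and 9.65, 9.76 and 9.28 at E12.5. In mandibular ectoderm it measured 10.60, 10.42 and 10.40 at E11.5 and 10.98, 11.05 and 11.02 at E12.5, above every frontonasal array. The difference was -0.98 (SE 0.07, adjusted p = 5.7e-14), and maxillary minus mandibular was -0.76 (SE 0.07, adjusted p = 9.3e-11). Slc4a4 was lower than mandibular in frontonasal (-0.64, SE 0.09) and in maxillary ectoderm (-0.56, SE 0.09), with no overlap in either case. Among 15 exchangers of bicarbonate, protons and anions, to which Slc4a4 belongs, 2 were higher and 2 lower in frontonasal than in mandibular ectoderm. The other 11 were not called, and the shares in the authors' table were 13.4% higher and 13.8% lower.

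Of 17 metal carriers 1 was higher in frontonasal than in mandibular ectoderm, 3 were lower and 13 were not called, beside 13.4% higher and 13.8% lower in the authors' table. The zinc and manganese importer Slc39a8 was lower in frontonasal than in mandibular ectoderm by 0.55 (SE 0.08), a difference of -0.07 at E11.5 and -1.03 at E12.5. The iron exporter Slc40a1 was lower by 0.48 (SE 0.08). Slc39a2 was higher (0.72, SE 0.08), as was Slc6a14 (0.65, SE 0.12). Slc45a2, a melanosomal carrier needed for pigment, measured 6.90, 6.93 and 6.67 in frontonasal ectoderm at E12.5, against 5.14 to 5.34 in mandibular and 5.77 to 6.06 in maxillary ectoderm of that age, and frontonasal minus mandibular was 0.87 (SE 0.10, adjusted p = 1.9e-08). Of 9 glial and melanocyte markers 4 were higher in frontonasal ectoderm, and the mean level of that list was 6.93 to 6.95 there at E12.5 and 5.81 to 6.21 on all other ectoderm arrays. The vesicular glutamate carrier Slc17a6 measured 6.22, 5.62 and 5.72 in frontonasal ectoderm at E11.5 and 3.80, 4.33 and 4.85 at E12.5, with 3.97 to 4.64 in mandibular ectoderm over all ages. Neuronal markers moved with it, at a mean level of 6.80 to 7.30 in frontonasal ectoderm at E11.5 and 5.23 to 5.45 at E12.5. What those cell types add to these values was not tested.

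Maxillary and mandibular ectoderm were closer, with 9 transporters higher (3.03% of all tested and 4.3% of the authors' table) and 5 lower (2.01% of all, 2.57% of the table). After Slc7a11 the largest was the phosphate importer Slc34a2 (0.62, SE 0.10, adjusted p = 5.8e-05), followed by the myo-inositol carrier Slc2a13 (0.49, SE 0.08) and Slc4a11 (0.46, SE 0.09). Between frontonasal and maxillary ectoderm 14 were higher (4.31% of all, 5.68% of the table) and 6 lower (4.93% of all, 6.62% of the table). Slc7a8, a light chain for neutral amino acids, was higher in frontonasal ectoderm by 0.48 (SE 0.07), while the calcium exchangers Slc24a3 (-0.41, SE 0.08) and Slc8a1 (-0.39, SE 0.07) were lower. The value of Slc8a1 is that of its probe set with the larger layer difference, and its other probe set is not given here. In a fit to only the groups compared this count of 20 was 7. There Slc16a12, Slc25a33 and Slc26a2 lost their calls, with adjusted p of 0.073, 0.12 and 0.15. Without frontonasal ectoderm E12.5 replicate 3, Slc26a2 had an adjusted p of 0.070.

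**Figure D3:**
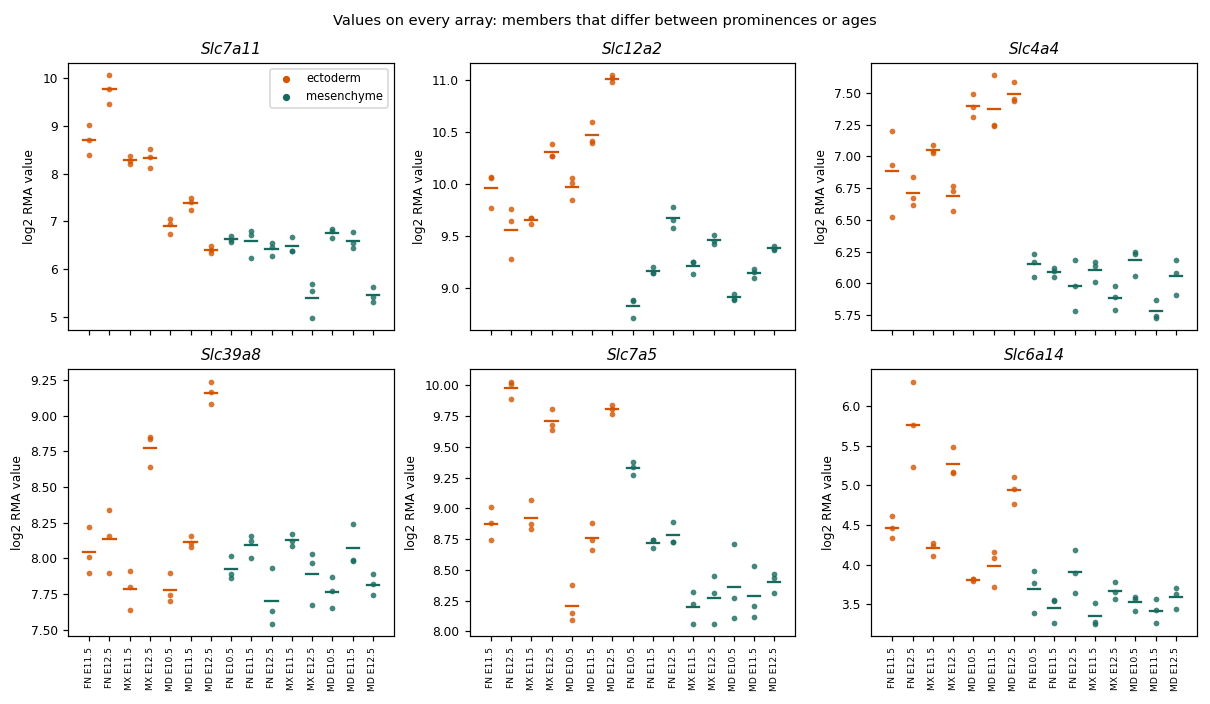
Log2 signal of 6 transporters on each of the 45 arrays, with groups, points, bars and colours as in the plot of the layer differences by array. Slc7a11 falls from frontonasal through maxillary to mandibular ectoderm while Slc12a2 is highest in mandibular ectoderm at E12.5, and Slc7a5 and Slc6a14 are higher at E12.5 than at E11.5 in the ectoderm of each prominence.

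In mesenchyme, frontonasal minus mandibular gave 31 transporters higher (11.8% of all tested and 16.6% of the authors' table) and 19 lower (8.48% of all, 11.2% of the table). Slc17a6 measured 5.78, 5.78 and 5.70 in frontonasal mesenchyme at E11.5 and 5.87, 6.05 and 5.90 at E12.5, against 3.99 to 4.35 in mandibular mesenchyme, where 1 of 6 arrays detected it. The difference was 1.70 (SE 0.13, adjusted p = 1.3e-13), taken against mandibular arrays of which 5 did not detect it above background. Slc9a3r1 measured from 8.33 to 8.54 against 6.61 to 7.16 (1.53, SE 0.09), Slc35f2 from 7.71 to 8.45 against 6.36 to 6.77 (1.48, SE 0.08) and Slc15a2 from 5.30 to 6.27 against 4.44 to 5.07 (1.15, SE 0.15). Frontonasal arrays were above all mandibular ones for each of these 4 genes, and for Slc35d1, which carries nucleotide sugars into the endoplasmic reticulum (0.97, SE 0.09).

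Markers of other tissue moved the same way in that comparison. All 11 epithelial markers were higher in frontonasal than in mandibular mesenchyme, with a mean level of 7.85 to 8.75 against 5.84 to 6.82 at these ages. Of 8 neuronal markers tested, 5 were higher and 2 lower, with a mean level at E12.5 of 7.31 to 7.49 against 6.07 to 6.20. In the ectoderm of the same prominences, Slc9a3r1 differed by -0.04 (SE 0.09, adjusted p = 0.73), Slc15a2 by 0.17 (SE 0.15, adjusted p = 0.39) and Slc35d1 by 0.14 (SE 0.09, adjusted p = 0.25). Slc35f2 differed there by 0.28 (SE 0.08, adjusted p = 0.010). The part of epithelial and neural cells in the frontonasal mesenchyme values was not tested.

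Mandibular mesenchyme had higher values of a different set. Slc16a7, a high-affinity carrier of pyruvate and lactate, measured 5.33, 5.40 and 5.47 in frontonasal and 6.62, 6.61 and 6.27 in mandibular mesenchyme at E11.5, and 6.03, 6.01 and 6.33 against 7.12, 6.87 and 7.04 at E12.5. The groups did not overlap at either age, and the difference was -0.99 (SE 0.11, adjusted p = 8.7e-09). Slc24a3 (-0.87, SE 0.08), Slc41a2 (-0.73, SE 0.10), the amino acid importer Slc38a4 (-0.67, SE 0.06) and Slc7a8 (-0.64, SE 0.07) were also lower in frontonasal mesenchyme. For Slc24a3 the difference was -0.09 at E11.5 and -1.64 at E12.5, and for Slc7a8 it was -0.07 and -1.21. All 7 skeletal muscle markers were lower in frontonasal than in mandibular mesenchyme, with a mean level of 5.27 to 5.57 against 7.05 to 8.40. How far muscle enters these differences was not tested.

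**Figure D4:**
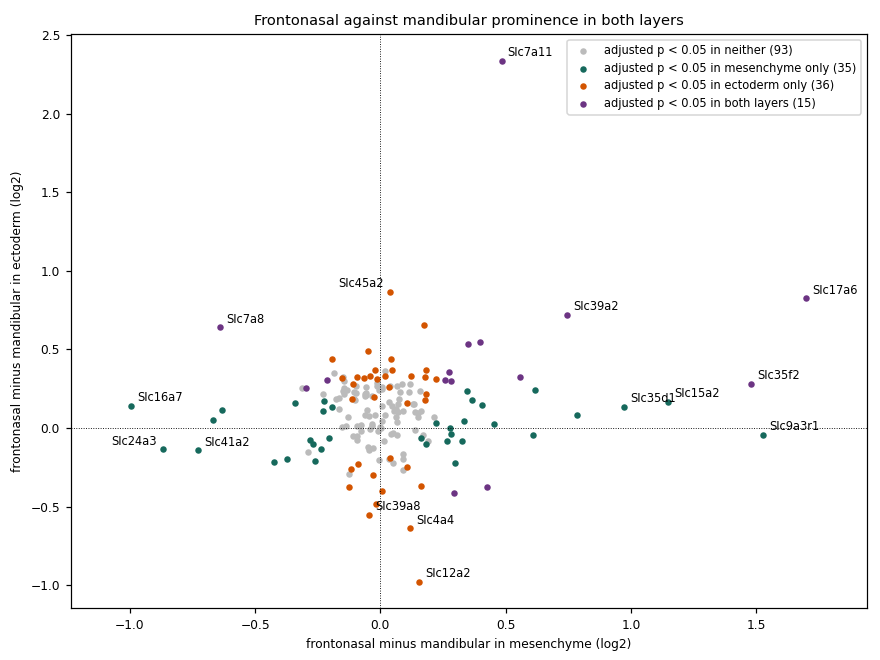
Frontonasal minus mandibular difference (log2) of each of the 179 probe sets in mesenchyme (horizontal axis) and in ectoderm (vertical axis), with colour for the layer in which the adjusted p was under 0.05. The comparison was called in both layers for 15 probe sets, 10 of them in the same direction (5.63% of all tested, 7.62% of the authors' table) and 5 in opposite directions (2.11% and 2.99%), and Slc7a11 stands alone at the top while Slc17a6, Slc9a3r1 and Slc35f2 lie at the right.

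Maxillary minus mandibular mesenchyme gave 13 transporters higher (4.15% of all tested and 5.86% of the authors' table) and 13 lower (5.84% of all, 7.78% of the table). Slc35f2 was higher (0.72, SE 0.08, adjusted p = 7.6e-09), as were the glial-type glutamate importer Slc1a3 (0.59, SE 0.07) and Slc17a6 (0.51, SE 0.13), which was detected on 5 of 6 maxillary and 1 of 6 mandibular arrays. Slc26a7, an anion exchanger, was lower by 1.05 (SE 0.13, adjusted p = 4.7e-08), Slc7a8 by 0.75 (SE 0.07) and Slc6a17 by 0.72 (SE 0.09). Of the marker lists, 7 of 7 skeletal muscle and 4 of 5 cartilage genes were lower in maxillary than in mandibular mesenchyme. Of 8 neuronal genes 6 were higher and 1 lower, and of 9 glial and melanocyte genes 2 were higher and 1 lower. Frontonasal minus maxillary mesenchyme gave 34 higher (11.8% of all, 16.5% of the table) and 15 lower (6.99% of all, 9.3% of the table). Slc17a6 (1.19, SE 0.13), Slc9a3r1 (1.12, SE 0.09) and Slc6a17 (0.98, SE 0.09) led the former and Slc1a3 (-0.64, SE 0.07) and Slc41a2 (-0.60, SE 0.10) the latter. All 11 epithelial markers were higher in frontonasal here as well, and 5 of 8 neuronal markers were higher and 2 lower. Of the cartilage markers 4 of 5 were higher, and 6 of 7 skeletal muscle markers were lower. Of 9 glial and melanocyte markers 1 was higher and 3 lower. The part of these tissues in the maxillary comparisons was not tested.

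The third question was the change with age. Between E10.5 and E11.5, frontonasal and mandibular mesenchyme gave 35 transporters higher (14.8% of all tested and 20% of the authors' table) and 26 lower (11.3% of all, 12.6% of the table). Mandibular ectoderm, with 3 arrays an age, gave 21 higher (11.4% of all, 15.6% of the table) and 23 lower (6.95% of all, 8.06% of the table). The lactate exporter Slc16a3 fell in both layers. In frontonasal and mandibular mesenchyme together it measured from 8.94 to 9.20 (median 8.99) at E10.5 and from 8.06 to 8.47 (median 8.23) at E11.5, a change of -0.79 (SE 0.07, adjusted p = 2.3e-10). In mandibular ectoderm it went from 9.48, 9.38 and 9.41 to 8.61, 8.53 and 8.67, a change of -0.82 (SE 0.11, adjusted p = 3.2e-07).

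The promoter of Slc16a3 is given because it fell in both layers without overlap between the ages. It lies at chr11:120948817-120949116 on the plus strand of GRCm38.p6, and capitals mark ACGTG as for Slc2a1.
Slc16a3: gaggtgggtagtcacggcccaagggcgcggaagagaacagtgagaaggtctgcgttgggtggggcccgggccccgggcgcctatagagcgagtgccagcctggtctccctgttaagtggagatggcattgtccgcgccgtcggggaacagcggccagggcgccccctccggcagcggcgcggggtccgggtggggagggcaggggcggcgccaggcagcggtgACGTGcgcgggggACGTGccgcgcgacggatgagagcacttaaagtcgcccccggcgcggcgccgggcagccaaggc
It holds 2 matches, which begin 27 and 14 bases before the start, and 8.21% of the 32851 promoters hold 2 or more.

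Slc16a1 and Slc25a13 fell in both layers over the same interval, within groups that moved in either direction. In mesenchyme, of 15 carriers of mono- and dicarboxylates and bile acids 3 rose and 2 fell, and of 21 mitochondrial carriers 2 rose and 5 fell. Of 16 sugar and sodium-coupled carriers 3 rose and 3 fell there, beside 20% that rose and 12.6% that fell in the authors' table. Slc16a1, another lactate carrier, changed by -0.41 (SE 0.07) in mesenchyme and -0.39 (SE 0.10) in ectoderm, and Slc25a13 by -0.78 (SE 0.07) and -0.69 (SE 0.09). Slc25a5, which exchanges ADP and ATP across the inner mitochondrial membrane, changed in mesenchyme by -0.57 at each of its probe sets. These follow each other with r = 0.987 over the 45 arrays, and near-identical gene copies make the assignment of its signal uncertain. Slc2a3 fell in mesenchyme by 0.72 (SE 0.12, adjusted p = 1.7e-05), by 1.28 in the frontonasal and 0.15 in the mandibular prominence. Its frontonasal mesenchyme replicates measured 9.14, 9.17 and 8.79 at E10.5 and 7.86, 7.65 and 7.74 at E11.5. In those groups the mean level of the epithelial list was 7.87 to 7.93 and 7.85 to 7.87. That of the neuronal list was 6.64 to 6.86 and 7 to 7.15. How far epithelial and neural cells enter the fall of Slc2a3 was not tested. In mandibular ectoderm the change of Slc2a3 was -0.23 (SE 0.17, adjusted p = 0.38).

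Several genes rose from E10.5 to E11.5. Slc4a1 rose by 1.31 in each layer (SE 0.19 in mesenchyme, 0.27 in ectoderm), and in mesenchyme Slc14a1 rose by 0.85 (SE 0.11). Red cell markers were higher at E11.5 for 9 of 12 genes in mesenchyme and 6 of 12 in mandibular ectoderm. In mesenchyme 6 of 7 skeletal muscle, 4 of 9 glial and melanocyte and 2 of 8 neuronal markers were also higher. Of 8 macrophage markers 3 were higher and 1 lower there, and 2 of 5 cartilage markers were lower. The part of these cell types in the changes of either layer was not tested. The probe sets of Slc8a1 rose by 0.65 and 0.55 in mesenchyme and by 0.57 and 0.64 in ectoderm, where the latter was detected on 1 of 3 arrays at E10.5 and 3 of 3 at E11.5. The iron exporter Slc40a1 rose by 0.64 (SE 0.08) in mesenchyme and fell by 0.46 (SE 0.12) in ectoderm. In ectoderm the glucose carrier Slc2a12 (0.72, SE 0.14), the cationic amino acid carrier Slc7a2 (0.59, SE 0.09) and Slc26a2 (0.58, SE 0.11) also rose, while Slc1a3 (-0.77, SE 0.10), Slc27a3 (-0.73, SE 0.12) and the iodide importer Slc5a5 (-0.67, SE 0.15) fell. All 6 mesenchymal markers and 7 of 9 endothelial markers rose in that ectoderm, and Prrx1, a mesenchymal factor, measured 6.04, 5.35 and 6.86 at E10.5 and 7.77, 9.86 and 10.01 at E11.5. The part of that tissue in the ectoderm changes was not tested.

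Between E11.5 and E12.5 all 3 prominences entered, with 9 arrays an age in each layer. Mesenchyme gave 55 transporters higher (19.4% of all tested and 26.2% of the authors' table) and 30 lower (17.3% of all, 20.3% of the table). Slc26a7 had the largest rise. It went from 5.27, 5.26 and 5.57 to 6.70, 6.73 and 7.28 in frontonasal, from 5.51, 5.50 and 5.54 to 7.54, 7.66 and 7.60 in mandibular, and from 4.41, 4.54 and 4.83 to 6.10, 6.67 and 6.50 in maxillary mesenchyme. Every E12.5 array was above every E11.5 array, and the change was 1.82 (SE 0.10, 3.52-fold, adjusted p = 1.1e-16). In ectoderm it changed by 0.51 (SE 0.10, adjusted p = 0.00015).

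Slc7a8 rose in mesenchyme by 0.92 (SE 0.06), by 0.41 in the frontonasal, 0.78 in the maxillary and 1.56 in the mandibular prominence. Slc40a1 (0.72, SE 0.07), the choline carrier Slc44a1 (0.62, SE 0.06) and Slc2a13 (0.62, SE 0.06) rose as well. Of 17 metal carriers 8 rose and 3 fell, and of 12 organic ion and fatty acid carriers 5 rose and 0 fell, beside the 26.2% and 20.3% of the authors' table. Over the same day 6 of 7 skeletal muscle, 6 of 11 epithelial, 3 of 5 cartilage and 3 of 9 endothelial markers rose in mesenchyme, and their part in these rises was not tested. Slc38a5, a glutamine carrier that erythroid cells express, fell by 1.05 (SE 0.10), Slc4a1 by 1.14 (SE 0.15) and Slc25a37 by 0.50 (SE 0.06). Red cell markers were lower for 10 of 12 genes, and their mean level went from 8.24 to 8.67 at E11.5 to 7.42 to 7.82 at E12.5. The part of red cells in these falls was not tested. Slc25a13 fell again, by 0.86 (SE 0.05), and Slc7a11 by 0.79 (SE 0.09).

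Ectoderm over the same day gave 48 transporters higher (11.9% of all tested and 14.3% of the authors' table) and 29 lower (16.8% of all, 21.9% of the table). Of 27 amino acid and peptide carriers 14 rose, 4 fell and 9 were not called. Slc7a5 measured from 8.66 to 9.07 (median 8.87) at E11.5 and from 9.64 to 10.03 (median 9.81) at E12.5, with no overlap. The rise was 0.98 (SE 0.07, adjusted p = 7.0e-14) and lay between 0.79 and 1.10 in the 3 prominences, while in mesenchyme the change was 0.08 (SE 0.07, adjusted p = 0.39). Its heavy chain Slc3a2 rose by 0.24 (SE 0.04, adjusted p = 4.5e-06), from 10.54 to 10.70 at E11.5 to 10.74 to 11.10 at E12.5.

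Slc6a14 had the largest rise in ectoderm, from 3.72 to 4.61 at E11.5 to 4.77 to 6.31 at E12.5 (1.11, SE 0.10, adjusted p = 2.4e-11), again without overlap. Slc45a2 rose by 0.98 (SE 0.08), by 1.78 in the frontonasal and 0.33 in the mandibular prominence. The zinc carriers Slc39a2 (0.88, SE 0.07) and Slc39a8 (0.71, SE 0.06) rose, the latter by 1.05 in the mandibular, 0.99 in the maxillary and 0.09 in the frontonasal prominence. Slc16a1 rose by 0.46 (SE 0.06) in ectoderm and fell by 0.39 (SE 0.06) in mesenchyme. Among the falls were Slc4a1 (-0.94, SE 0.15), Slc22a23 (-0.65, SE 0.06), Slc17a6 (-0.57, SE 0.10), Slc43a1 (-0.55, SE 0.06) and the GABA carrier Slc6a13 (-0.51, SE 0.08). Neuronal markers fell for 7 of 8 genes and red cell markers for 6 of 12. Endothelial markers fell for 4 of 9 genes and cartilage markers for 3 of 5, and 0 of either list rose. Of 6 mesenchymal markers 1 rose and 3 fell, and of 9 glial and melanocyte markers 3 rose and 1 fell. The part of these cell types in the ectoderm changes was not tested. Without the frontonasal groups the change of Slc17a6 was -0.09 (adjusted p = 0.75).

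**Figure D5:**
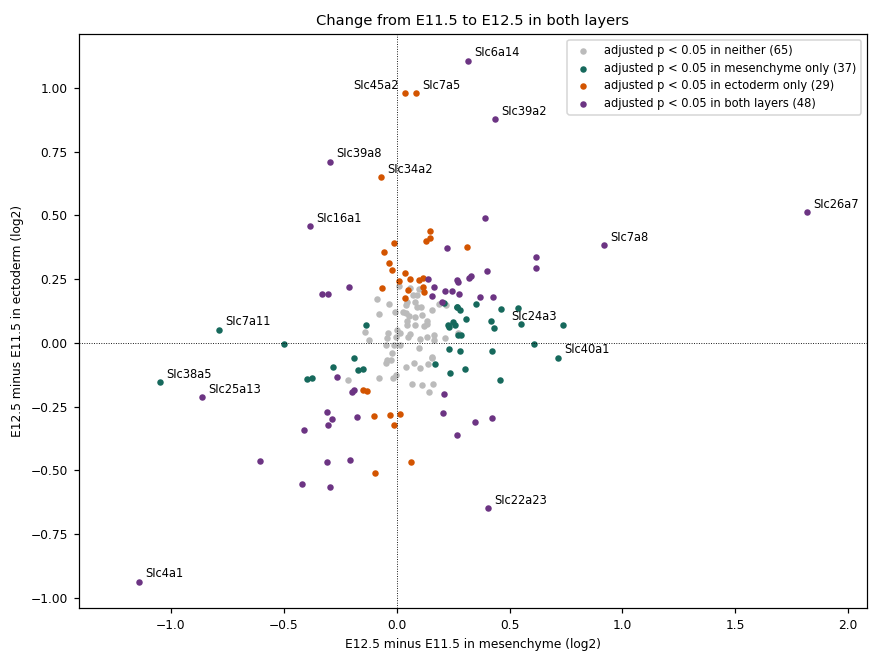
Change from E11.5 to E12.5 (log2) of each of the 179 probe sets in mesenchyme (horizontal axis) and ectoderm (vertical axis), with colour for the layer in which the adjusted p was under 0.05. The change was called in both layers for 48 probe sets, 37 in the same direction (13.1% of all tested, 17.3% of the authors' table) and 11 in opposite directions (3.06% and 4.43%), with Slc26a7 farthest right at 1.82 and Slc6a14 highest at 1.11.

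The difference between the layers in these effects was tested as an interaction. For the change from E11.5 to E12.5, ectoderm minus mesenchyme, 22 transporters were higher (8.36% of all tested and 9.7% of the authors' table) and 34 lower (15.5% of all, 21.7% of the table). For the frontonasal minus mandibular difference, ectoderm minus mesenchyme, 27 were higher (8.63% of all, 10.8% of the table) and 22 lower (9.83% of all, 13.5% of the table). Of 27 amino acid and peptide carriers 10 were higher and 1 lower in the latter test. Slc39a8 gave 1.00 (SE 0.09, adjusted p = 9.6e-11) in the test of age, with a rise in ectoderm and a fall of 0.29 in mesenchyme. Slc12a2 gave -1.13 (SE 0.09, adjusted p = 6.4e-12) in the test of prominence, and in mesenchyme its frontonasal minus mandibular difference was 0.15 (SE 0.07, adjusted p = 0.10).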

How the data were processed

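The deposited arrays were Affymetrix Mouse Gene 1.0 ST, 45 in all. The authors' log2 signals were summarised with RMA in Affymetrix Power Tools, per the submitters' processing notes, which name mm9. Detection p-values per probe set were deposited by the authors, made with Affymetrix Power Tools per the file headers, and a probe set was called detected at p under 0.05. The authors' model table of 9626 probe sets, with its p-values and q-values, was deposited after a filter on variance and was used here to choose the members; 1 further symbol is not reported here.

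From these log2 signals limma 3.58.1 in R 4.3.3 fitted 1 mean per group over all 45 arrays. Contrasts averaged ages and prominences with equal weight, and p-values were adjusted by Benjamini-Hochberg over the 14472 probe sets with variance above the median. The fit was tested on simulated data. Genes named are those with the largest differences per comparison (10 each way for the layers with the same sign in all 7 combinations, 5 each way elsewhere, 6 per interaction, 4 per functional group) and a fixed list; others were chosen after their values were seen. The members, functional groups and marker lists were chosen with earlier results of these data known, so counts are read only beside those of all probe sets. Replicate numbers were checked between the layers only and did not pair samples: of 21 pairs of ectoderm and mesenchyme arrays with the same number, age and prominence, 10 matched best with their own number, and correlations of deviations ran from -0.421 to 0.364. Alternatives covered normalization, filters, array weights, the groups fitted, the replicate block and leaving out arrays. Promoters were read from RefSeq (GRCm38.p6) for 130 of 173 symbols. The number of arrays limits the precision.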

Additional observations from a re-analysis of the deposited data

Results flagged for a closer look

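These transporters had, for each contrast, the 6 differences between the layers of largest size among those that passed the test. The test passed for 56 transporters for age and 49 for prominence. For the change from E11.5 to E12.5, ectoderm minus mesenchyme, Slc26a7 gave -1.306 (0.51 in ectoderm and 1.82 in mesenchyme, limma adjusted p = 6.9e-09). Slc22a23 gave -1.054 (-0.65 and 0.41, adjusted p = 5.6e-12) and Slc39a8 gave 1.004 (0.71 and -0.29, adjusted p = 9.6e-11), each with opposite signs in the layers. Slc45a2 gave 0.942 (0.98 and 0.04, adjusted p = 3.3e-08). Slc38a5 gave 0.894 (-0.15 and -1.05, adjusted p = 5.6e-06). Slc7a5 gave 0.893 (0.98 and 0.08, adjusted p = 4.8e-09). In the same test 7 of 12 red cell markers were higher, and 7 of 9 endothelial, 6 of 8 neuronal and 5 of 7 skeletal muscle markers were lower. Of 9 glial and melanocyte markers 3 were higher and 1 lower, and 3 of 6 mesenchymal and 3 of 5 cartilage markers were lower. Their part in these values was not tested.

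For frontonasal minus mandibular, ectoderm minus mesenchyme, Slc7a11 gave 1.855 (2.34 in ectoderm and 0.48 in mesenchyme, limma adjusted p = 3.3e-11). Slc9a3r1 gave -1.572 (-0.04 and 1.53, adjusted p = 3.4e-12) and Slc35f2 gave -1.200 (0.28 and 1.48, adjusted p = 1.8e-10). All 11 epithelial markers were lower in the same test, all 7 skeletal muscle markers were higher, and 1 of 8 neuronal markers was higher and 4 lower. Of 9 glial and melanocyte markers 5 were higher and 1 lower. Their part in these values was not tested. Slc7a8 gave 1.282 (0.64 and -0.64, adjusted p = 5.9e-12), with opposite signs. Slc16a7 gave 1.133 (0.14 and -0.99, adjusted p = 1.6e-06). Slc12a2 gave -1.133 (-0.98 and 0.15, adjusted p = 6.4e-12).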

How the results depend on the processing

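The 51 transporters called between frontonasal and mandibular ectoderm were 18 (13 higher, 5 lower) in a fit to only the groups compared, and 28 to 77 when single arrays were left out. The 20 called between frontonasal and maxillary ectoderm were 7 in a fit to only the groups compared. The other 11 counts stayed within 1.5 times their value under every alternative run; the layer count of 151 ran from 134, without the frontonasal groups, to 155. With the replicate block the layer count was 153, and the counts were 51, 27 and 48 for mesenchyme frontonasal minus mandibular, maxillary minus mandibular and frontonasal minus maxillary, 57, 13 and 19 for the same in ectoderm, 60 and 88 for the mesenchyme ages, 46 and 76 for the ectoderm ages, and 55 and 49 for the interactions of age and prominence. No direction reversed among the results computed. Without the frontonasal groups the layer differences of Slc17a6, Slc18a3 and Slc1a3 lost their calls (adjusted p = 0.935, 0.21 and 0.106). Slc1a5, not called between the layers (adjusted p = 0.090), was called under 7 alternatives, with an adjusted p from 0.00216, with array weights, to 0.0463. The setting without the arrays that stand apart was chosen after seeing the data; under it Slc25a33 and Slc26a2 lost their frontonasal minus maxillary calls in ectoderm (adjusted p = 0.057 and 0.0925). The causes were not tested.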
